A study of Mus musculus with 16 samples.

Results

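S100g, Vdr and Atp2b1 are genes of calcium uptake by the intestinal epithelium, measured here in mouse ileal epithelial cells that had been cut from tissue by laser capture. Their probe sets were taken as those whose only gene symbol in the platform annotation was 1 of these 3 names. This gave 4 of 12488 probe sets, 2 for S100g (160918_at and 161835_at) and 2 for Vdr (99964_at and 99965_at). No probe set carried the symbol Atp2b1 alone, so Atp2b1, the calcium pump of the basolateral membrane, was not analysed here. The genes were chosen by their measured signals in these groups, which were already known, so their levels below are a description and carry no test.

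The 16 arrays fell by title into carcinoma (n = 5), an invasive tumour, adenoma (n = 5), a benign tumour, and WT (n = 6). All were labelled as epithelial cells of the ileum, and RNA of every group went through 2 rounds of amplification before hybridisation to Affymetrix MG_U74Av2 arrays. The label WT, read as wild type, is the only word on genotype in the sources used here. They name no genotype for the tumour arrays. They also give no strain, age or treatment, no count of mice and no rule for the captured regions. In differences from WT, tumour state and any difference of genotype cannot be told apart. Arrays are not tied to mice, so p-values measure the spread between arrays and are too small where some came from 1 mouse.

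Calcium crosses the absorptive cell in 3 steps. It enters from the lumen through the channel Trpv6, is carried through the cytosol by S100g (calbindin-D9k, a small protein of the S100 family with EF-hand calcium sites), and is pumped out by Atp2b1. Vdr is the nuclear receptor for active vitamin D. With a retinoid X receptor as its partner it binds DNA and raises transcription of S100g and Trpv6 in the small intestine. S100g is best known from absorptive cells of the villus and is most abundant in the duodenum.

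The 250 bases upstream of the annotated starts of S100g and Vdr are shown because the levels of S100g and Vdr went apart in adenoma. The sequences are from RefSeq (GRCm38.p6) and both lie on the minus strand, S100g at chrX:162964600-162964849 and Vdr at chr15:97908297-97908546. Capitals mark AGGTCA and GGTTCA, half-sites that nuclear receptors bind, and GGGCGG, the GC box, on either strand.
S100g: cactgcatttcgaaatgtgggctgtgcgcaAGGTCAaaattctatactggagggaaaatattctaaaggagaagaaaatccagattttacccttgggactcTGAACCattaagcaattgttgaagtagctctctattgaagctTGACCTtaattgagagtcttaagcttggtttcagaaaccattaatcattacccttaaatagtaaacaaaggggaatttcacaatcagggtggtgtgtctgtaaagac
Vdr: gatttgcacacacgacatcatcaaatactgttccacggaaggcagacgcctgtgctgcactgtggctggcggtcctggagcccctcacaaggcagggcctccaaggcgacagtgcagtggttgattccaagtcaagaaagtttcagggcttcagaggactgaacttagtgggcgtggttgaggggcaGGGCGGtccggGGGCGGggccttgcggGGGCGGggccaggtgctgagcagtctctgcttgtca

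Searches covered both strands of each window of 250 bases before and 50 after a start. The S100g window held AGGTCA at 2 places, 1 of them on the opposite strand as TGACCT, and GGTTCA once, as TGAACC. Of 32851 such windows of mouse genes, 16.3% held AGGTCA at least once and 1.81% at 2 or more places, and GGTTCA stood in 10.4%. The S100g window also held 1 TATA box (TATAAA), at the annotated start itself, as did 13.6% of windows. The Vdr window held none of these and had GGGCGG at 3 places. Of all windows 19.5% held GGGCGG at 2 or more places, and the share at 3 or more was not counted. A direct repeat of half-sites with a spacer of 3 bases (DR3), the usual element of Vdr with its partner, was in neither window and in 0.256% of all. For DR3 a half-site was any match to the looser pattern RGKTSA. In it R is A or G, K is G or T and S is C or G. These matches are letters in a window and not measured sites.

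S100g was bright on the adenoma arrays and dim on the carcinoma and WT arrays. Values are the deposited probe set signals on a linear scale. Probe set 161835_at, the brighter, gave 254.2, 75.3, 302.3, 93.1 and 631.3 in carcinoma 1 to 5, and 6982.8, 8068.1, 1662.1, 5683.7 and 4984.9 in adenoma 1 to 5. In the 6 WT arrays it ran from 4.9 over a median of 64.05 to 141.9. Every adenoma array lay above every carcinoma and WT array, while carcinoma 2 and carcinoma 4 lay within the WT range and the other carcinoma arrays above it. Adenoma 3 was the lowest adenoma array and still above the highest carcinoma array.

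The second probe set gave the same order of adenoma above the rest, at lower signal. Probe set 160918_at gave 114.4, 27.6, 63.6, 95.5 and 249.9 in carcinoma 1 to 5, and 2412.6, 1981.8, 544.2, 1485.6 and 1600.9 in adenoma 1 to 5. In WT it ran from 41.1 over a median of 96.85 to 160.8. Here too no adenoma array overlapped another group, and adenoma 3 was again the lowest. Of the carcinoma arrays only carcinoma 5 lay above the WT range. Adenoma 3 and carcinoma 5 were thus the extreme arrays of their groups, low and high, on both S100g probe sets.

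Log2 values were taken after a floor at 46.9, the 25th percentile of all values (5.55 on the log2 scale). On that scale 161835_at averaged 7.66 ± 1.27 in carcinoma, 12.24 ± 0.902 in adenoma and 6.25 ± 0.788 in WT (SD, n = 5, 5 and 6). Of the WT arrays 3 lay at the floor, which understates differences from WT. The log2 difference of adenoma from WT was 5.99 ± 0.532 (standard error), a 63.5-fold higher level, and by size it was number 4 of the 2987 genes with a positive difference. Carcinoma differed from WT by 1.41 ± 0.532 (95% interval 0.295 to 2.52), number 198 of 3065 such genes. For 160918_at the log2 difference was 3.98 ± 0.445 in adenoma, 15.8-fold, and 0.08 ± 0.445 in carcinoma (95% interval -0.856 to 1.01). Both probe sets showed adenoma far above WT. The carcinoma difference was larger with 161835_at than with 160918_at, and it varied with the fit, as given below for the Gapdh covariate.

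**Figure D1:**
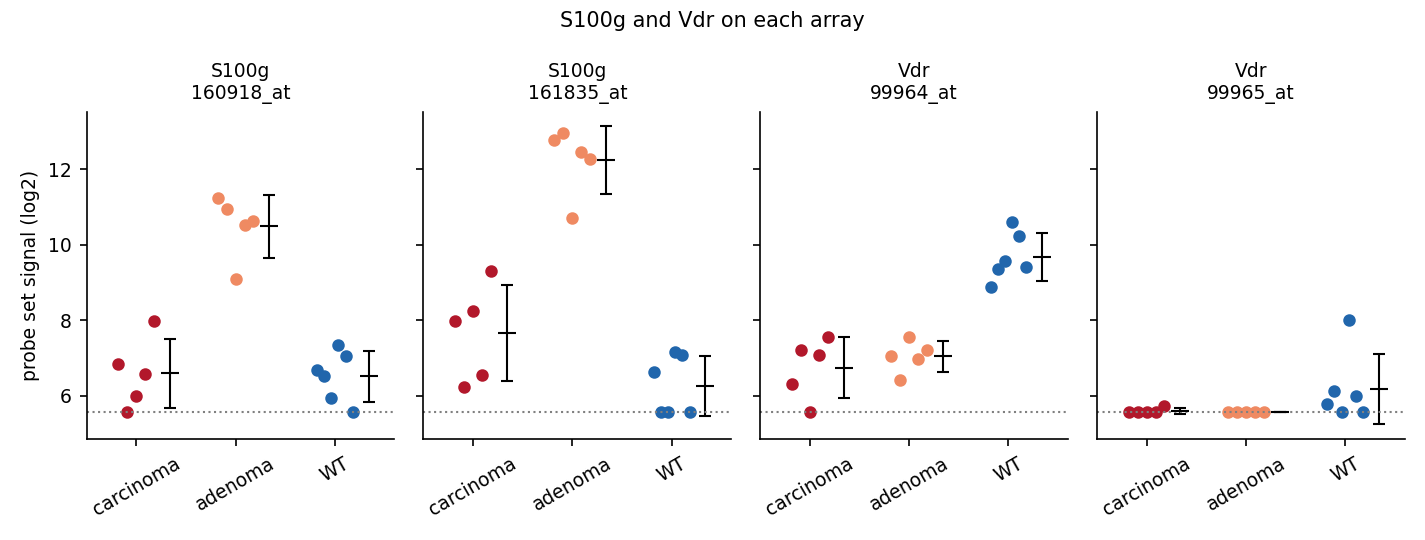
Probe set signal of S100g and Vdr (log2, after the floor) on each of 16 arrays, with carcinoma, adenoma and WT from left to right. Points are arrays, black bars show mean and SD, and the dotted line is the floor at 5.55. The adenoma arrays stand above all others for both S100g probe sets, and the WT arrays above both tumours for Vdr probe set 99964_at.

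Between the tumours, S100g was lower in carcinoma than in adenoma. The log2 difference was -4.58 ± 0.556 with 161835_at, 23.9-fold, and -3.91 ± 0.465 with 160918_at, 15.0-fold. This was the largest lower difference among 7455 genes. In that comparison 2 of the 7455 genes (0.0268%) passed an adjusted p of 0.05 by limma, both of them lower, and 0% passed as higher. That share covers all genes tested, S100g among them, so it is no independent background for S100g. Since S100g was chosen with these differences known, no test of it is reported and nothing is read from that share. The comparisons share arrays, carcinoma against adenoma using the adenoma arrays that also set the difference from WT.

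Vdr, the receptor, was lower in both tumours than in WT, so it did not follow S100g. Probe set 99964_at gave 79.4, 147.7, 25, 135.5 and 187.1 in carcinoma 1 to 5, and 131.4, 85.3, 187.0, 125.3 and 148.4 in adenoma 1 to 5. In WT it ran from 469.8 over a median of 716.45 to 1561.9. All 10 tumour arrays lay below all 6 WT arrays, and the tumour groups overlapped each other, with carcinoma 3 at the floor. How many of all genes part the groups as fully was not counted. For Vdr, as for S100g, the separation is only a description.

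On the log2 scale 99964_at averaged 6.74 ± 0.804 in carcinoma, 7.04 ± 0.413 in adenoma and 9.68 ± 0.636 in WT (SD, n = 5, 5 and 6). The difference from WT was -2.93 ± 0.371 in carcinoma (7.65-fold lower) and -2.64 ± 0.371 in adenoma (6.23-fold lower). These were number 26 of 4390 and number 21 of 4468 genes with a negative difference. Carcinoma differed from adenoma by -0.30 ± 0.387, with a 95% interval from -1.11 to 0.514. The tumour arrays overlapped on Vdr and did not overlap on S100g.

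The other Vdr probe set, 99965_at, was close to the floor. It was above the floor on 1 of 5 carcinoma arrays, 0 of 5 adenoma arrays and 4 of 6 WT arrays. The highest signals were 52.8 in carcinoma, 43.8 in adenoma and 257.8 in WT, the last on WT 4 alone. The log2 differences from WT, -0.58 ± 0.345 in carcinoma and -0.62 ± 0.345 in adenoma, are bounded by the floor and point the same way as those of 99964_at. This probe set passed the filter on low values with 5 arrays above the floor, 4 of them WT. All 4 probe sets of the 2 genes passed that filter, as did 10563 probe sets in all.

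**Figure D2:**
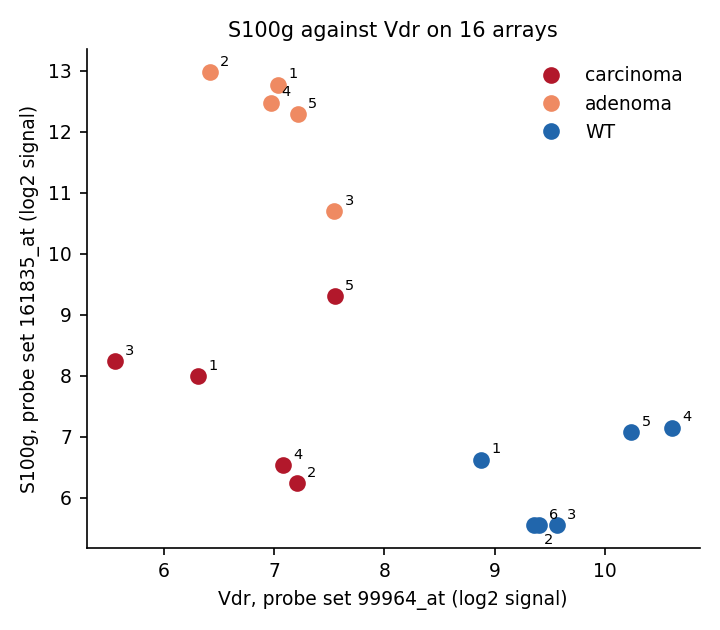
Level of S100g (161835_at, vertical axis) against Vdr (99964_at, horizontal axis), both in log2 signal, with 1 point per array and its replicate number beside it. Adenoma arrays lie at low Vdr and high S100g, carcinoma arrays at low Vdr and low to middle S100g, and WT arrays at high Vdr and low S100g.

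Ileal epithelium was checked by its markers. Epcam, an adhesion molecule of epithelial cells, averaged 13.10 ± 0.308 in carcinoma, 12.97 ± 0.253 in adenoma and 13.20 ± 0.336 in WT on the log2 scale (SD, n = 5, 5 and 6). Of 12 enterocyte markers tested, 5 were lower in carcinoma and 4 in adenoma than in WT at the adjusted p of 0.05, with none higher (limma). Over all genes tested, 4.9% passed as lower in carcinoma and 4.25% in adenoma. Between carcinoma and adenoma 0 of 12 passed, with 1 at an unadjusted p under 0.05. Their summed signal was 13890 to 22900 in carcinoma, 20370 to 59710 in adenoma and 26520 to 98620 in WT. Among markers of the ileum, the bile acid exporter subunit Slc51a was lower in both tumours (log2 -3.05 ± 0.312 and -2.03 ± 0.312, adjusted p = 3.3e-06 and 0.000345). Slc51a was the only 1 of 3 tested ileal markers to pass in either tumour. At an unadjusted p under 0.05 by limma, 2 of 3 were lower in carcinoma and 3 of 3 in adenoma. The ileal bile acid importer Slc10a2 was dim throughout, at 5.74 in carcinoma, 5.55 in adenoma and 6.31 in WT. It lay at the floor on every adenoma array. Fabp6 averaged 7.26, 7.30 and 8.86 in the same order (limma, adjusted p = 0.0833 in carcinoma and 0.097 in adenoma against WT). In such captures fewer cells of a type and less RNA per cell cannot be told apart.

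Mast cell markers also moved between the groups. Their summed signal over 5 genes was 1773 to 3659 in carcinoma, 2911 to 7684 in adenoma and 386.1 to 969.8 in WT, and 3 of 5 (Mcpt1, Mcpt2 and Cpa3, all mast cell proteases) passed as higher in each tumour, by limma, against 4.16% of all genes in carcinoma and 4.02% in adenoma. Between carcinoma and adenoma 0 of 5 passed, with 3 at an unadjusted p under 0.05. Of the defining markers, the IgE receptor chain Ms4a2 averaged 5.89 ± 0.691 in carcinoma, 5.95 ± 0.441 in adenoma and 6.77 ± 0.757 in WT. The receptor Kit averaged 6.92 ± 0.598 in carcinoma, 7.95 ± 0.529 in adenoma and 7.47 ± 0.786 in WT, and neither gene passed. The log2 ratio of 3' to 5' Gapdh signal, a measure of RNA quality, was 5.70 ± 0.583, 5.82 ± 0.24 and 4.52 ± 0.389 in the same order. The signal of spiked-in transcripts was 12.23 ± 0.499, 12.24 ± 0.824 and 13.74 ± 1.0. The means of both tumours differed from WT on the last 2 measures, and single arrays overlapped: WT 3 and WT 6 lay within the tumour range of spike-in signal, and carcinoma 4 lay below WT 6 in the Gapdh ratio. The part of these measures in the differences of S100g and Vdr was not tested, apart from fits that held them as a covariate. When that Gapdh measure was held as a covariate, the adenoma difference from WT was 4.91 ± 0.889 for S100g and -3.43 ± 0.612 for Vdr. In that fit S100g in carcinoma differed from WT by 0.428 ± 0.836 and from adenoma by -4.48 ± 0.543.

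Other cell types were read from 8 further marker lists, to be set against 4.16% of all genes higher and 4.9% lower in carcinoma, and 4.02% higher and 4.25% lower in adenoma. Of 3 tested Paneth cell markers 2 rose and 1 fell in each tumour, and 3 of 5 goblet cell and 4 of 7 enteroendocrine markers fell in each. Of 4 tested lymphocyte and plasma cell markers 2 fell in each tumour, as did 2 of 6 smooth muscle markers. Of 6 fibroblast markers 2 rose in carcinoma and 0 passed in adenoma, where 2 had an unadjusted p under 0.05. Of 5 endothelial markers 1 rose in adenoma and 0 passed in carcinoma, where 4 had an unadjusted p under 0.05. Of 6 macrophage and neutrophil markers 0 passed in either tumour by limma, with 1 in carcinoma and 0 in adenoma at an unadjusted p under 0.05. Markers of stroma were not absent from the captures. Summed signal of the fibroblast list was 8666 to 16310 in carcinoma, 6479 to 9602 in adenoma and 4488 to 8905 in WT. For the smooth muscle list it was 1100 to 2462, 1232 to 3560 and 3541 to 5762 in the same order. The part of these cells in the S100g and Vdr differences was not tested.

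Other genes of calcium transport and vitamin D action were read from 6 lists of 77 genes, of which 51 had a probe set of their own and 43 were bright enough to test. In adenoma 1 of the 43 rose and 3 fell at an adjusted p of 0.05 (limma, over all 7455 genes tested). Over all genes 8.28% passed in that comparison, 4.02% as higher and 4.25% as lower. In carcinoma 1 rose and 6 fell, against 9.05% of all genes, 4.16% higher and 4.9% lower. The median log2 difference of the listed genes was -0.35 in adenoma and -0.38 in carcinoma, against -0.14 in both for all genes. These medians moved with the scaling: for the listed genes they were -0.19 in adenoma and -0.26 in carcinoma after quantile normalization, and -0.10 and -0.12 with array medians aligned. The median of all genes was then -0.02 and -0.01, and 0.12 and 0.15. Between carcinoma and adenoma 0 of 43 passed by limma, and 2 had an unadjusted p under 0.05. The split of all calls moved with the scaling of the arrays: 45.9% of carcinoma calls and 48.6% of adenoma calls were higher as deposited, 58.8% and 62.6% after quantile normalization, and 73.7% and 75.8% with array medians aligned.

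The carrier and pump genes beside S100g showed no difference that passed. Of 12 transcellular genes 5 had a probe set and 4 were tested, with 0 passing in any comparison by limma and, at an unadjusted p under 0.05, 1 in carcinoma against WT. That was the sodium-calcium exchanger Slc8a1, at 5.68 in carcinoma, 6.27 in adenoma and 6.62 in WT on the log2 scale (adjusted p = 0.119 in carcinoma). Calbindin-D28k (Calb1), a larger calcium buffer, was above the floor on 2 of 16 arrays. Calretinin (Calb2) averaged 7.05, 7.13 and 7.18 in carcinoma, adenoma and WT, and the pump Atp2b2 5.55, 5.77 and 5.81. Trpv6 was not analysed here.

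Of the paracellular genes, which control calcium flow between cells, 2 of 6 were tested, the scaffold Tjp1 and occludin (Ocln), and neither passed in either tumour (limma, adjusted p from 0.333 to 0.934; 0 at an unadjusted p under 0.05). The claudin Cldn2 was above the floor on 3 of 16 arrays.

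Among 13 tested partners of Vdr and enzymes of vitamin D, 3 fell in carcinoma and 0 passed in adenoma by limma, where 2 had an unadjusted p under 0.05. Over all genes 4.9% passed as lower in carcinoma and 4.25% in adenoma. Rxra, the retinoid X receptor alpha that pairs with Vdr, ran from 601.7 to 967 in carcinoma, from 553.5 to 1729.3 in adenoma and from 783.1 to 2160.3 in WT. It fell in carcinoma (log2 difference -1.03 ± 0.31, adjusted p = 0.0435), and the difference in adenoma was -0.67 ± 0.31 (adjusted p = 0.207). Its groups overlapped, and its second probe set, 92235_g_at, was lower by similar amounts, -0.92 ± 0.303 in carcinoma and -1.09 ± 0.303 in adenoma. The Rxra call in carcinoma held in only 5 of 16 fits that left out an array, those without WT 3, WT 6, adenoma 4, adenoma 5 or carcinoma 5, and in the other 11 the adjusted p was 0.0537 to 0.0987.

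Cyp3a11, a xenobiotic cytochrome P450 that vitamin D receptor agonists induce, fell furthest in that list. Its signal was 20.3 to 160.9 in carcinoma, 79.4 to 1476 in adenoma and 169.9 to 3507.8 in WT, so every carcinoma array lay below every WT array and adenoma spanned both. The log2 difference was -2.80 ± 0.771 in carcinoma (adjusted p = 0.0275) and -1.26 ± 0.771 in adenoma (adjusted p = 0.348). Without WT 1, carcinoma 1, carcinoma 3 or carcinoma 5 the carcinoma call was lost, at adjusted p of 0.0522 to 0.0713. Cyp3a13, of the same family, fell in carcinoma (log2 difference -1.15 ± 0.314, adjusted p = 0.027) and differed in adenoma by -0.43 ± 0.314 (adjusted p = 0.43). Its call was lost without WT 1, WT 2, carcinoma 1, carcinoma 2, carcinoma 4 or carcinoma 5 (adjusted p of 0.0528 to 0.0674).

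Cyp24a1, which degrades active vitamin D and is a classic Vdr target, was above the floor on 6 of 16 arrays, none of them carcinoma. It averaged 5.55 in carcinoma, 5.87 in adenoma and 5.96 in WT. Cyp27b1, which makes active vitamin D, averaged 6.24, 6.88 and 6.68 in the same order (adjusted p = 0.679 and 0.871 against WT). Of the receptors that can stand beside Vdr, Rxrb averaged 11.62, 11.57 and 11.76, and Rxrg lay at the floor on all arrays.

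Of 9 tested regulators of S100g or of calcium hormones, 1 fell in each tumour. The share of all genes that fell was 4.9% in carcinoma and 4.25% in adenoma. Cdx1, an intestinal homeobox factor, ran from 297.5 to 1039.1 in carcinoma, from 213.7 to 1153.2 in adenoma and from 584 to 3859.7 in WT. It fell in adenoma (log2 difference -1.56 ± 0.475, adjusted p = 0.0493) and differed in carcinoma by -1.48 ± 0.475 (adjusted p = 0.0586). The adenoma call was kept in only 4 of 16 fits that left out an array, those without WT 1, WT 3, adenoma 4 or carcinoma 5, and the adjusted p was 0.0568 to 0.138 in the rest. Cdx1 passed in carcinoma without WT 1, adenoma 4 or carcinoma 5 (adjusted p of 0.0257 to 0.0349). Cdx2, a related factor known to act on the S100g promoter in the rat, averaged 6.24 ± 0.617 in carcinoma, 5.65 ± 0.169 in adenoma and 6.62 ± 0.834 in WT (SD; adjusted p = 0.55 and 0.116 against WT). Gata4, a zinc finger factor of the proximal small intestine, ran from 78 to 446.1 in carcinoma, from 197.6 to 800.4 in adenoma and from 403.8 to 817.8 in WT. It fell in carcinoma (log2 difference -1.49 ± 0.408, adjusted p = 0.0272) and differed in adenoma by -0.75 ± 0.408 (adjusted p = 0.286). The carcinoma call was lost without WT 2, WT 3, carcinoma 1, carcinoma 4 or carcinoma 5 (adjusted p of 0.051 to 0.0691).

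Of 8 tested genes of calcium stores, 1 rose and 1 fell in carcinoma, and 1 rose and 2 fell in adenoma. Over all genes 4.16% rose and 4.9% fell in carcinoma, and 4.02% rose and 4.25% fell in adenoma. Itpr2, a calcium release channel of the endoplasmic reticulum, ran from 5267.1 to 13983.9 in carcinoma, from 3305.4 to 11085.2 in adenoma and from 2273.8 to 4595.9 in WT. It rose in carcinoma by 1.51 ± 0.338 (adjusted p = 0.00742), with every carcinoma array above every WT array, and in adenoma by 1.13 ± 0.338 (adjusted p = 0.0456). The carcinoma call held whichever array was left out, but with the mean of its probe sets the difference was 0.554 (adjusted p = 0.177) in carcinoma and 0.334 (adjusted p = 0.431) in adenoma. In single-array omissions the adenoma call held only without WT 4, WT 6, adenoma 4, carcinoma 3 or carcinoma 5 (adjusted p of 0.0504 to 0.121 in the other 11 fits). Of its 4 probe sets, 101442_f_at was also higher. Probe set 94565_at went the other way, at the floor on all 10 tumour arrays and above it on 4 of 6 WT arrays, and 96420_at lay near the floor, so the direction rests on which probe set is read.

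Stim1, the store sensor that opens calcium entry channels, ran from 500.8 to 970.2 in carcinoma, from 459.5 to 781.7 in adenoma and from 765.4 to 1532.2 in WT. It fell in carcinoma (log2 difference -0.87 ± 0.256, adjusted p = 0.0395) and in adenoma (-0.99 ± 0.256, adjusted p = 0.0213). The carcinoma call was lost without WT 1, WT 2, WT 4, WT 5, carcinoma 1, carcinoma 3, carcinoma 4 or carcinoma 5 (adjusted p of 0.0536 to 0.107). The adenoma call was lost without adenoma 1, adenoma 2 or adenoma 5 (adjusted p of 0.0521 to 0.0679).

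Calu, a calcium-binding protein of the secretory pathway, gave opposite directions on its probe sets. With 161208_r_at it fell in adenoma (log2 difference -1.41 ± 0.421, adjusted p = 0.0449) and differed in carcinoma by -1.15 ± 0.421 (adjusted p = 0.0966). With 101107_at the differences were 1.30 ± 0.418 in carcinoma and 0.94 ± 0.418 in adenoma, so the direction for Calu is not settled. The adenoma call held only without WT 4, adenoma 4, carcinoma 3 or carcinoma 5 (adjusted p of 0.0501 to 0.117 in the other 12 fits), and without adenoma 2 Calu passed in carcinoma (adjusted p = 0.038).

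Of 7 tested genes of phosphate, magnesium and iron uptake, 1 fell in carcinoma and 0 passed in adenoma by limma, where 1 had an unadjusted p under 0.05. The share of all genes that fell was 4.9% in carcinoma and 4.25% in adenoma. Slc34a2, the sodium-phosphate cotransporter of the brush border, ran from 13 to 53.2 in carcinoma, from 48.2 to 259.4 in adenoma and from 73.4 to 1126 in WT. Every carcinoma array lay below every WT array, and only 2 of 5 carcinoma arrays lay above the floor. It fell in carcinoma (log2 difference -2.41 ± 0.575, adjusted p = 0.0113) and differed in adenoma by -1.04 ± 0.575 (adjusted p = 0.296). The carcinoma call held whichever array was left out, but it was lost with the floor at the 40th percentile. Carcinoma against adenoma differed by -1.37 ± 0.6 (adjusted p = 1). With WT 1, WT 2, WT 4 and WT 5 left out, which had the brightest spike-ins, no listed gene passed in either tumour. With the Gapdh covariate only Cdx1 passed, in both tumours, and with the spike-in covariate only Slc34a2, in carcinoma (adjusted p = 0.0494).

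**Figure D3:**
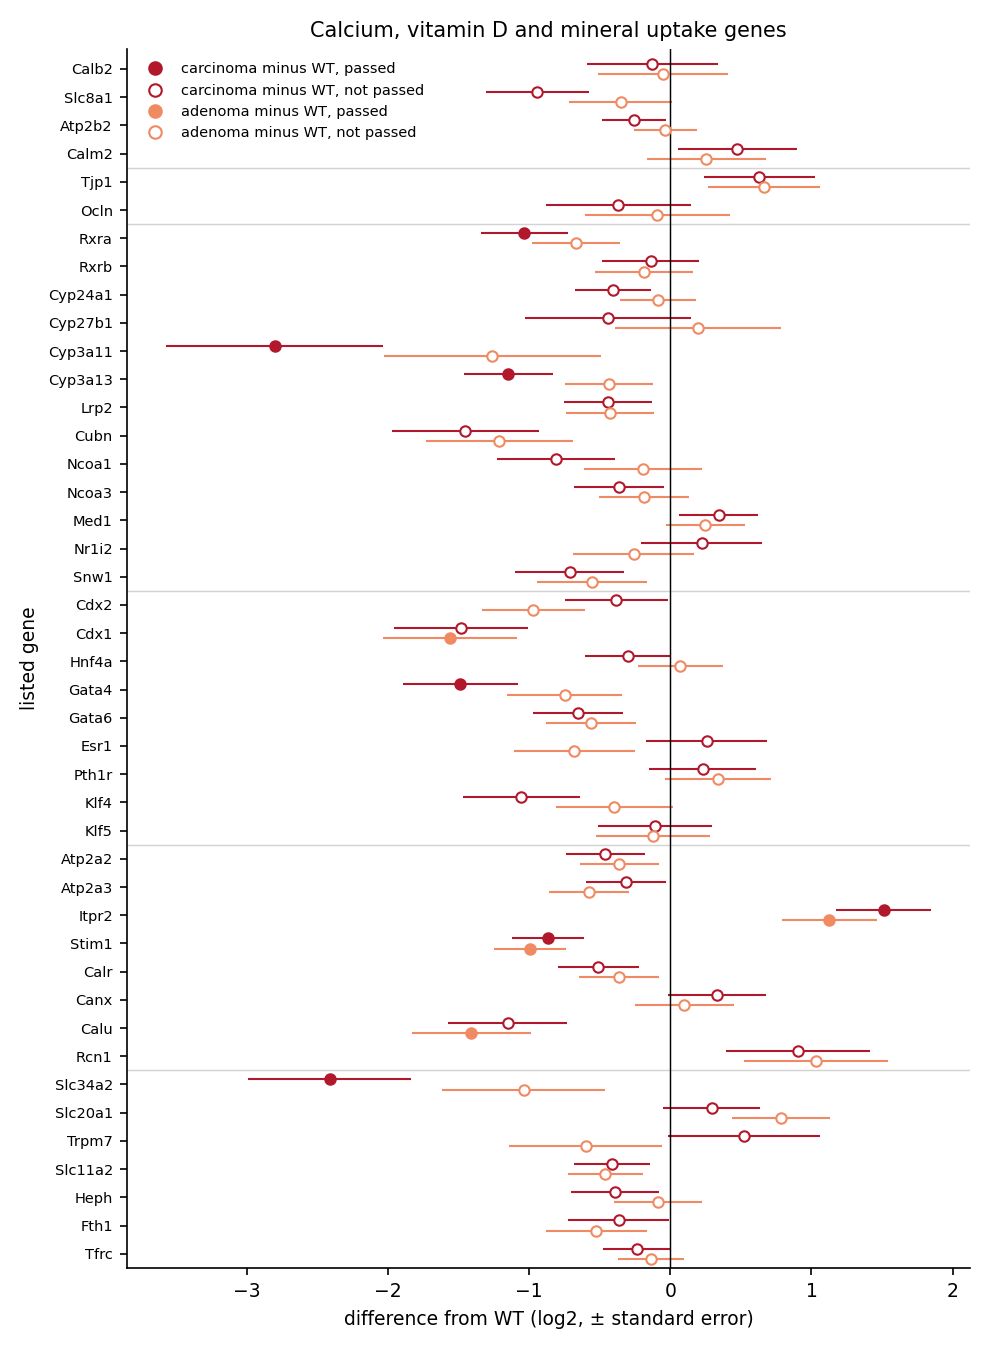
Log2 difference from WT, with its standard error, of the 43 tested genes of the 6 lists, carcinoma above adenoma in each row. Filled points passed an adjusted p of 0.05 and open points did not, and grey lines part the lists. Most points lie left of 0, as the medians of -0.38 in carcinoma and -0.35 in adenoma say.

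The genes whose profile over the 16 arrays was nearest to that of S100g were found by the root mean square difference of log2 values after each gene was centred on its own mean. Among 7454 genes Igfbp1, an insulin-like growth factor binding protein, was nearest at 1.33, against an SD of 2.79 in the S100g profile itself. Gpx5, a glutathione peroxidase best known from the epididymis, followed at 1.5, the mast cell protease Mcpt2 at 1.57, the mast cell carboxypeptidase Cpa3 at 1.72 and the endoderm factor Sox17 at 1.74. Igfbp1 averaged 8.39 ± 1.31 in carcinoma, 10.03 ± 0.678 in adenoma and 5.66 ± 0.269 in WT. Gpx5 averaged 6.47 ± 0.807 in carcinoma, 10.41 ± 1.36 in adenoma and 6.84 ± 0.976 in WT.

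These 5 genes differed among themselves in carcinoma. Gpx5 lay near WT there, as S100g did by 160918_at (-0.37 ± 0.568 against WT for Gpx5). By 161835_at, the probe set whose profile was compared, S100g in carcinoma lay above WT by 1.41 ± 0.532. Igfbp1, Mcpt2, Cpa3 and Sox17 lay between adenoma and WT, with carcinoma above WT by 2.73 ± 0.459, 3.76 ± 0.388, 1.61 ± 0.399 and 1.79 ± 0.33. The likeness is a description over arrays that share their groups, and it was read from the same values that chose S100g.

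**Figure D4:**
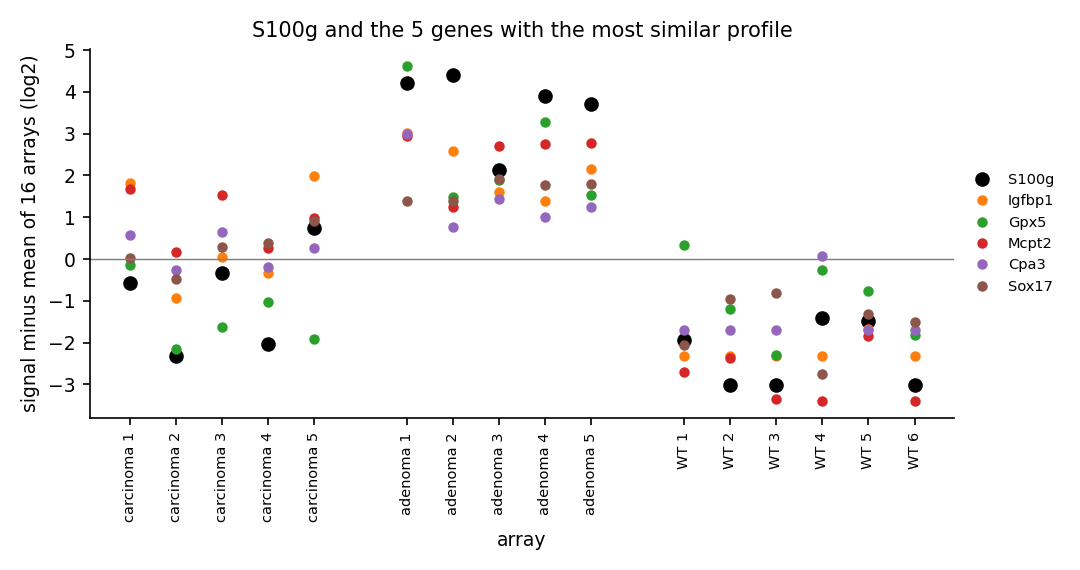
Log2 signal minus the mean of 16 arrays for S100g (black) and the 5 genes nearest to it, with arrays in the order carcinoma, adenoma and WT. All 6 genes lie above their mean on the adenoma arrays. On the carcinoma arrays Gpx5 lies below its mean throughout and Mcpt2 above it.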

How the data were processed

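RNA of laser-captured ileal epithelium was amplified in 2 rounds and hybridised to Affymetrix MG_U74Av2 arrays, per the labels' protocols. The deposited intensity values, 1 signal per probe set and array, were taken as the authors gave them; no source used here names the software or scaling. A floor was set at 46.9, the 25th percentile over all arrays, before log2 was taken. Probe sets above the floor on at least 5 arrays were kept and control probe sets left out. For the test of genes, those with several symbols or none were left out too. The probe set with the highest mean stood for a gene, which gave 7455 tested genes. All 16 arrays entered 1 limma fit of these genes (version 3.58.1, R 4.3.3, 13 residual degrees of freedom) with Benjamini-Hochberg adjustment, tested on simulated data. The main differences of S100g and Vdr, and those of second probe sets, came from a like fit over 10563 probe sets. That fit kept those with several symbols or none. Arrays were grouped by title, and no 2 held identical values. The number of arrays limits the precision. Gene names come from the platform annotation.

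The members and lists were chosen with earlier results of these data known. Genes named with full values are the members, the listed genes that passed in either tumour against WT, and the 5 genes nearest to S100g in profile. Others are named for their role in a list. A planned p-value for the members in carcinoma against adenoma is not reported, since adenoma values took part in their choice. Alternatives changed the floor, filter, scaling, probe set rule, covariates and arrays used.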

Additional observations from a re-analysis of the deposited data

Results flagged for a closer look

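In 3 of 39 groups of values examined, 1 array stood apart from the rest of its group by Dixon's criterion, which chance meets in about 1 of 20 groups. For Vdr probe set 99965_at, carcinoma replicate 5 had a log2 signal of 5.72 while the other carcinoma arrays lay at the floor of 5.55. The floor itself makes that gap, since any value above 4 tied ones meets the criterion, and the signals before the floor ran from 16.3 to 31.3 with 52.8 the highest. For the same probe set, WT replicate 4 had 8.01, against 5.55 to 6.11 on the other WT arrays. For Calu, adenoma replicate 2 lay at the floor of 5.55, against 7.59 to 7.83 on the other adenoma arrays.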

How the results depend on the processing

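Over 28 alternative settings S100g and Vdr kept the sign of their differences from WT. These were read from 161835_at and 99964_at, except in the setting with the mean of probe sets. The carcinoma difference of 160918_at, 0.08, had no stable sign. It was 0.87 with the spike-in covariate, 0.847 without the 4 WT arrays brightest in spike-ins, -0.328 with the Gapdh covariate, -0.0452 with the floor at the 10th percentile, -0.115 with the replicate block and -0.269 to 0.334 with 1 array left out. The log2 difference of S100g between adenoma and WT (5.99) was 4.99 with the mean of its probe sets, 4.91 with Gapdh 3' to 5' as covariate, and 5.8 to 6.37 when 1 array was left out. For carcinoma against WT (1.41) it was 0.428 with the Gapdh covariate, less than its standard error, and 1 to 1.77 with 1 array left out. For carcinoma against adenoma it was -4.99 to -4.22 with 1 array left out. Vdr in adenoma against WT (-2.64) was -1.63 with the mean of its probe sets, -3.43 with the Gapdh covariate and -2.8 to -2.45 with 1 array left out. In carcinoma against WT (-2.93) it was -1.76, -3.66 and -3.14 to -2.64 in those settings.

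Counts of genes depended more on the setting. In adenoma against WT (617) the count was 70 with the Gapdh covariate, 398 with the spike-in covariate, 181 without the 4 WT arrays brightest in spike-ins and 384 to 674 with 1 array left out. In carcinoma against WT (675) it was 100, 382, 209 and 494 to 773. In carcinoma against adenoma (2) it was 0 with the floor at the 10th percentile, 5 at the 40th, 1 without the filter, 0 with only those groups fitted, 6 without the 4 WT arrays and 1 to 5 with 1 array left out. Of the listed genes in adenoma (4), 1 passed after quantile normalization, with medians aligned, without the filter, with only the compared groups or with the Gapdh covariate, 2 with the mean of probe sets, 0 with the spike-in covariate and 0 without the 4 WT arrays, and 0 to 4 with 1 array left out. Of those in carcinoma (7), 3 passed with medians aligned, 1 with either covariate, 0 without the 4 WT arrays, and 2 to 8 with 1 array left out. The cause was not tested. Alternatives for Atp2b1 were not run.

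Whether the replicate numbers pair the arrays is not given in the labels, and the values do not settle it. Of 15 same-number correlations of deviations, 7 were over 0.1 (-0.265 to 0.398), and 3 of 16 arrays correlated best with their own number. With the replicate block the counts were 728 in adenoma and 842 in carcinoma against WT and 2 between the tumours. Listed genes passing were 3, 7 and 0. S100g differed by 5.85, 1.27 and -4.58, and Vdr by -2.69, -2.99 and -0.297. Itpr2 in adenoma (adjusted p = 0.0737) and Stim1 in carcinoma (0.0643) no longer passed with the block, and Cdx1 in carcinoma did (0.03, limma).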
